A study of Mus musculus with 12 samples.

Results

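The insulin-like growth factor (IGF) family was followed across 12 two-colour Agilent arrays that compared mouse lung tumours knocked out (KO) for Dnmt3a with tumours wild type (WT) for it. Dnmt3a is a de novo DNA methyltransferase. Every probe was taken whose gene name on the array was Igf1, Igf1r, Insr or one of Igfbp1 to Igfbp7, which gave 16 probes of 10 genes, out of 41174 probes in all. All 16 were among the 35530 probes kept for testing, that is, well above background for KO or WT RNA on at least 6 arrays.

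All mice were of strain C57/129 and carried the K-ras G12D allele behind a stop cassette. Adenoviral Cre, given through the trachea or the nose at 6 to 12 weeks of age, switched that allele on in both groups and in the KO group also removed the conditional Dnmt3a alleles. The tumours were analysed as whole tissue, so a lower value can come from fewer cells of a type or from less RNA per cell, and these cannot be told apart. A KO and a WT sample were hybridised to each array in different dyes, 6 times with Cy5 for KO and 6 times with Cy3 for KO. Arrays with the same ages and sexes form 4 pairs. Pair A was on slide 1, pair B on slide 2, and pairs C and D shared slide 3. The labels do not give the unit of age. Pair A (replicates 1 to 4) set KO (male, age 47.7) against WT (male, 42.6). Pair B (replicates 5 to 8) set KO (male, 27) against WT (male, 41.3). Pair C (replicates 9 and 10) set KO (male, 27) against WT (female, 47.6), with KO RNA in Cy5 on both arrays. Pair D (replicates 11 and 12) set KO (male, 29.1) against WT (male, 37.3), with KO RNA in Cy3 on both. By the labels KO was younger in pairs B, C and D and older in pair A, so genotype and age cannot be told apart within any pair. In pair C genotype cannot be told apart from sex either. Pairs B and C may share a KO animal, since its age and sex are the same in the labels.

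The labels call the arrays biological replicates, but do not say whether a pair stands for several animals or for 1 per genotype. A p-value here therefore covers the spread among these arrays alone, part of which may be technical. The KO libraries of replicates 9 and 10 were far more alike (correlation 0.87 of their deviations across probes) than any other 2 libraries of one genotype within one of pairs A to D (0.642 at most). Between 57.6% and 89.6% of probes were well above background, with the lower values (71.3% or less) on the slide of pairs C and D and 81.6% or more on the other slides. No probe was saturated (0 on each array). At its brightest probe Dnmt3a fell by 0.21 on the log2 scale (± 0.045 SE, limma adjusted p = 0.0217), with 12 of 12 arrays below 0. Its 2 other probes gave -0.55 and -0.25 (limma adjusted p = 0.00264 and 0.0158). Whether any of them lies in the exons Cre takes out is not known here. Of 12 endothelial markers 11 fell in the KO tumours, with a median log2 ratio of -0.73 over the list, and their mean level ran from 10.0 to 10.4 (log2 intensity) in KO RNA and from 10.8 to 11.5 in WT RNA. Of the pericyte and smooth muscle markers 5 of 10 fell, with a median of -0.44. Of the other lists, 1 of 10 fibroblast, 2 of 10 proliferation and 1 of 4 hepatocyte markers rose (limma). Their list medians were -0.30, 0.28 and 0.70, so the fibroblast median lay below 0 although its 1 called gene rose. Of the alveolar type 2 and macrophage markers 2 of 10 and 1 of 10 fell, with medians of -0.118 and -0.215. For club and ciliated, lymphocyte and epithelial markers 0 of 6, 0 of 8 and 0 of 6 passed, with medians of -0.163, -0.0619 and -0.115. Over all genes tested 3.97% rose and 4.38% fell, so counts this small in lists this short say little about a cell type. The lung label was checked on alveolar type 2 markers, of which 9 of 10 were well above background on all arrays in both RNAs.

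IGF1 is a secreted growth factor that acts through the receptor tyrosine kinase IGF1R, and the closely related insulin receptor is encoded by Insr. In blood and tissue most IGF is held by the IGF binding proteins, which carry it, limit its access to the receptor and are cut by proteases to set it free. IGFBP7 binds IGF only weakly and is an abundant product of endothelial cells. In lung, IGF1 is made largely by stromal cells and macrophages, while IGF1R is found on epithelial and stromal cells alike.

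The start regions of these genes differ in the CpG dinucleotides that DNA methyltransferases act on, and 4 are shown because they span that range. Each is the 250 bases before the annotated start (RefSeq, GRCm38.p6), 5′ to 3′ on the gene's strand, with every CpG in capitals.
Igfbp1: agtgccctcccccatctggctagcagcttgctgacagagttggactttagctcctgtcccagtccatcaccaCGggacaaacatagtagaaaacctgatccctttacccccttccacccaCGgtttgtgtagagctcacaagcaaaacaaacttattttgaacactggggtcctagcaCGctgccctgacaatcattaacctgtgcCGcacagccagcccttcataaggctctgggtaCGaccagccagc
Igfbp2: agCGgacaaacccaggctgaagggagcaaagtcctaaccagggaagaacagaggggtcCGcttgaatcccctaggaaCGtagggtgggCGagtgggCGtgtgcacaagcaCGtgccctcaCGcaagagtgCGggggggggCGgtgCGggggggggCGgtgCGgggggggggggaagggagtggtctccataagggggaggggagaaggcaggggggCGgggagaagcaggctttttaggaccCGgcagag
Igfbp7: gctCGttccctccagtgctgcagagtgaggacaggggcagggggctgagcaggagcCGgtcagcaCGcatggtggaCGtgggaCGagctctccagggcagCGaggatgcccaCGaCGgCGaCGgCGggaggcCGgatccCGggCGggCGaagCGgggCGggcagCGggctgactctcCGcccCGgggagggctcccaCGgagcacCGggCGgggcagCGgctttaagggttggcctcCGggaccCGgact
Igf1r: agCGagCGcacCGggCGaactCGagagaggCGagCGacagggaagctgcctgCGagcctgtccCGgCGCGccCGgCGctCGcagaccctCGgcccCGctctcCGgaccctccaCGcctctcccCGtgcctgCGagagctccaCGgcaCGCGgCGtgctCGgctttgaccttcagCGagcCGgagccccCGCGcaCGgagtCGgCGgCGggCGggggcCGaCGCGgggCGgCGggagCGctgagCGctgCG
The Igfbp1 window (chr11:7197537-7197786, plus strand) held 5 CpG, close to the median of 6 over the 32851 windows of the table. The Igfbp2 window shown (chr1:72824230-72824479, plus strand) held 14, Igfbp7 (chr5:77408046-77408295, minus strand) 26 and Igf1r (chr7:67952007-67952256, plus strand) 42, at percentiles 72.7, 91.4 and 99.3 of all windows. A second Igfbp2 window in the table (chr1:72825137-72825386) held 11 CpG and neither TATAAA nor GGGCGG. Among the other members with a window, Igfbp3 held 32 CpG, Igfbp4 22, Igfbp5 10, Igfbp6 7 and Igf1 5. The motif TATAAA, searched on both strands, was in the windows of Igfbp4 and Igfbp6 and in 12.4% of all windows. The motif GGGCGG, which itself holds a CpG, was in those of Igfbp7 and Igf1r, in the shown one of Igfbp2 and in 32.7% of all windows, again on both strands. A match of letters shows no binding, and no DNA methylation was measured on these arrays. In the same gene table Igfbp1 and Igfbp3 are neighbouring protein-coding genes on chromosome 11, and Igfbp2 and Igfbp5 are neighbours on chromosome 1.

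Across the family, 0 of 16 probes passed the test of KO against WT (limma, Benjamini-Hochberg adjusted p under 0.05 over all kept probes), while 5.73% of all kept probes did (2.85% higher and 2.88% lower in KO). With 1 probe per gene the count was 0 of 10, against 8.34% of all genes. At an unadjusted p under 0.05 there were 2, the single probe of Igfbp2 and one of the 2 probes of Igf1r, where 21.0% of all probes were that low. That Igf1r probe was kept for testing through KO RNA alone, the RNA in which it was higher. The median log2 KO over WT ratio was -0.05 over the 16 probes and -0.0026 over all kept probes. The members varied widely from array to array. The median SD of their ratios over the 12 arrays was 0.49, against 0.26 for all kept probes, and 6 of 16 lay among the 10% of probes with the highest SD.

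**Figure D1:**
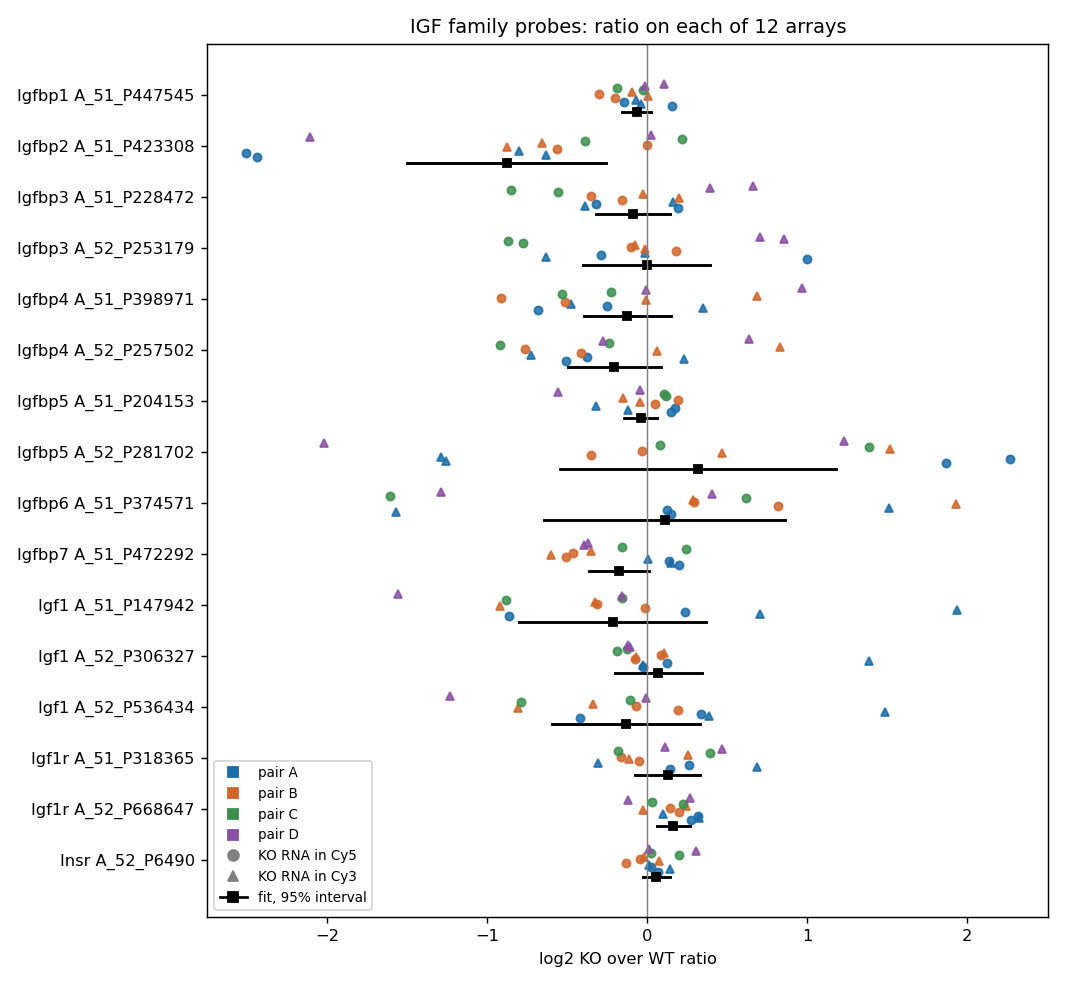
Log2 KO over WT ratio (x axis) of each of the 16 IGF family probes (y axis) on each array, coloured by pair and shaped by the dye of the KO RNA, with the limma estimate and its 95% interval as a black square and line. Only the intervals of Igfbp2 (-1.50 to -0.26) and of one Igf1r probe (0.059 to 0.27) exclude 0, and neither probe passed the adjusted threshold.

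Igfbp2, a binding protein with a preference for IGF2, had the largest ratio of the family. Its probe lies on chromosome 1 (mm7, 73093964 to 73094023, plus strand). In pair A the log2 KO over WT ratios were -2.44, -0.63, -2.51 and -0.80, and in pair B they were -0.56, -0.88, -0.0029 and -0.66. Pair C gave -0.39 and 0.22, and pair D gave -2.11 and 0.022. The ratio was thus below 0 on 10 of 12 arrays, and 3 arrays (replicates 1, 3 and 11) stood well below the other 9. The fitted ratio was -0.88 ± 0.28 (SE, n = 12 arrays), with a 95% interval from -1.50 to -0.26, and did not pass the threshold (limma adjusted p = 0.0946 over probes and 0.0794 with 1 probe per gene).

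On the 3 arrays of lowest ratio WT RNA was at its highest, and on 2 of them KO RNA was also at its lowest. WT RNA stood at 10.93, 11.28 and 11.38 (log2 intensity) on replicates 1, 3 and 11, and between 9.12 and 10.68 on the other arrays. KO RNA stood at 8.49, 8.77 and 9.28 on replicates 1, 3 and 11, and between 8.82 and 10.11 on the others, so that both RNAs moved apart in pair A. Over all arrays KO RNA ran from 8.49 to 10.11 with an SD of 0.43, against an SD of 0.77 for WT RNA, and the ranges overlapped. In pair A both arrays with KO RNA in Cy5 were the low ones, while in pair B the Cy5 arrays gave -0.56 and -0.0029. The fitted dye coefficient over all arrays was -0.08, but it draws also on pairs C and D, which hold 1 dye orientation each. Once the dye effect of pairs A and B was removed, pair C moved from a mean of -0.085 to 0.23 ± 0.61 (SE). Pair D moved from -1.04 to -1.36 ± 0.61. Without pair A the ratio was -0.55 (limma adjusted p = 0.277), and leaving out single arrays gave -0.74 (replicate 11) as the value nearest 0, with limma adjusted p from 0.0655 to 0.159.

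**Figure D2:**
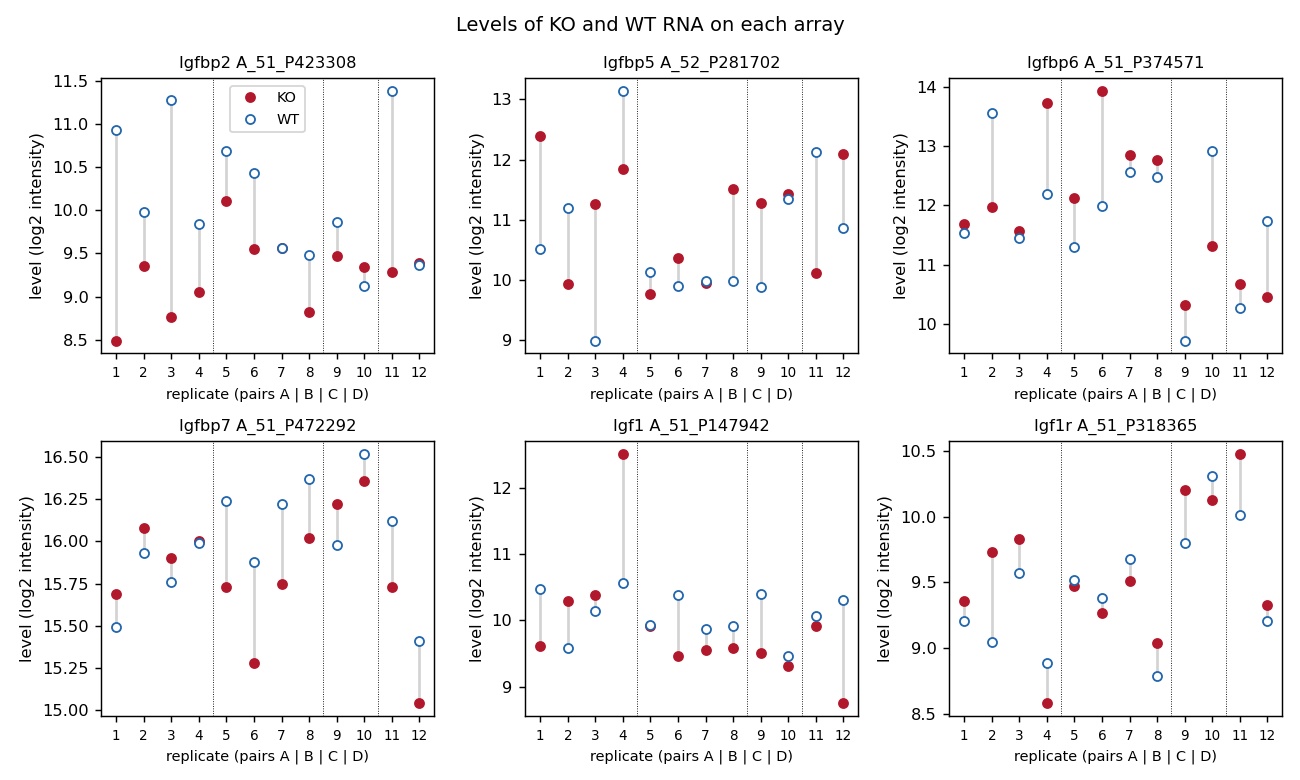
Level (y axis, log2 intensity after normalization) of KO RNA (filled) and WT RNA (open) on replicates 1 to 12 (x axis), with grey lines joining the 2 RNAs of an array and dotted lines between pairs A, B, C and D. At Igfbp2 the 3 widest gaps come with the highest WT levels (10.93, 11.28 and 11.38) and, on replicates 1 and 3, with the lowest KO levels (8.49 and 8.77), at Igfbp5 and Igfbp6 the gap changes direction within pairs, and at Igfbp7 it keeps its direction in pairs A, B and D.

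Igf1, the ligand, was covered by 3 probes, one of them printed as 10 spots on each array. At that probe (chromosome 10, mm7, 87488982 to 87489041, plus strand) the log2 KO over WT ratios were -0.86, 0.71, 0.24 and 1.94 in pair A and -0.015, -0.92, -0.32 and -0.33 in pair B. Pair C gave -0.89 and -0.16, and pair D gave -0.16 and -1.56. All 8 arrays outside pair A lay below 0, whereas 3 of 4 in pair A lay above it. Pair A alone was on slide 1 and alone had KO older than WT, so pair, slide and age cannot be told apart here. The fitted ratio was -0.22 ± 0.27 (SE, n = 12 arrays, limma adjusted p = 0.716), with a 95% interval from -0.80 to 0.37. It was -0.40 without replicate 4, -0.15 without replicate 1, -0.14 without replicate 6, -0.056 without replicate 12 and -0.55 without pair A (limma adjusted p = 0.307, 0.847, 0.839, 0.938 and 0.165). A difference between pairs did not pass the test either (limma F test, adjusted p = 0.563).

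The 10 spots measure spot noise within a hybridisation, but not labelling, hybridisation or normalization effects that they share. Their SD within an array was 0.037 to 0.19, while the SD over arrays was 0.90. A further Igf1 probe (A_52_P536434) followed the same course, with a correlation of 0.981 over the 12 arrays, which share the same RNA and slides, and a fitted ratio of -0.13 ± 0.21 (limma adjusted p = 0.788). KO RNA of replicate 4 stood out at both, at a level of 12.51 against a mean of 9.90 ± 0.93 (SD, n = 12) at the first probe. The remaining probe, designed on a cDNA clone, was well above background on 6 arrays for KO and 5 for WT RNA, so that it was kept through KO RNA alone. Its ratio was 0.07 ± 0.13 (limma adjusted p = 0.813). There too replicate 4 lay apart, at 1.39.

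Igf1r, the IGF receptor, was measured by 2 probes. At the brighter one (chromosome 7, mm7, 64082649 to 64082708, plus strand) the ratios ran from -0.31 through a median of 0.13 to 0.69, above 0 on 7 of 12 arrays, and the fit gave 0.13 ± 0.094 (SE, n = 12 arrays, limma adjusted p = 0.493). Its 95% interval, -0.08 to 0.33, allows a difference of up to 1.26-fold. The second probe (A_52_P668647), designed on a cDNA clone, was above 0 on 10 of 12 arrays, from -0.12 through 0.21 to 0.32, with a fitted ratio of 0.16 ± 0.047 (limma adjusted p = 0.0663).

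That second probe was dim. The 2 Igf1r probes correlated at 0.326 over the arrays. The dim one was well above background on 8 arrays for KO RNA and on 5 for WT RNA, none of them in pairs C and D. It thus met the filter through KO RNA alone, and a pass of this probe is to be read with that limit. With no filter on dim probes it stood at 0.16 (limma adjusted p = 0.0645). Whether it passed depended on the background treatment, as the deposited ratios of the authors, which match signals without background correction, gave 0.22 (limma adjusted p = 0.0432). Agilent's processed signals gave 0.82 (limma adjusted p = 0.0246). In the other direction, the local backgrounds as deposited gave 0.09 (limma adjusted p = 0.188). It also passed with the arrays taken as independent (limma adjusted p = 0.0342) and without replicate 11 (0.0294). Insr, the insulin receptor, had a single probe with ratios from -0.14 through 0.024 to 0.31 and a fit of 0.058 ± 0.040 (limma adjusted p = 0.453). Its 95% interval reached 1.11-fold at most.

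Igfbp3, the main carrier of circulating IGF, had values that lay apart in pairs C and D. At its brighter probe (chromosome 11, mm7, 7158599 to 7158658, minus strand) both arrays of pair C were low, at -0.77 and -0.87, and both of pair D were high, at 0.85 and 0.70. Pair A ran from -0.63 to 1.00 and pair B from -0.10 to 0.18. The other Igfbp3 probe gave -0.56 and -0.85 in pair C and 0.39 and 0.66 in pair D, and the probes correlated at 0.865. The fitted KO over WT ratios were -0.0041 ± 0.18 and -0.09 ± 0.11 (SE, n = 12 arrays, limma adjusted p = 0.994 and 0.709). The difference between pairs had limma adjusted p = 0.295 and 0.366 and so did not pass, at unadjusted p = 0.0167 and 0.0381, where 12.5% of all probes were below 0.05. Pairs C and D each hold 1 dye orientation. They also differ in the sex and age of the WT mice, and these cannot be told apart from a difference between the pairs. The KO libraries of pair C were far alike (0.87), so its 2 arrays may not be independent. With the dye effect of pairs A and B removed, the brighter probe stood at -1.01 ± 0.30 in pair C and 0.97 ± 0.30 in pair D, further apart than its means of -0.82 and 0.78. The other probe moved closer together, from means of -0.70 and 0.53 to -0.63 ± 0.19 and 0.46 ± 0.19.

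Igfbp4, a binding protein that holds IGF back from its receptor until it is cleaved, behaved otherwise. Its 2 probes on chromosome 11 correlated at 0.935 and gave -0.13 ± 0.13 and -0.21 ± 0.13 (SE, n = 12 arrays, limma adjusted p = 0.636 and 0.430). Both had marked dye coefficients of -0.38 and -0.33. The apparent contrast of pairs C and D at the first probe, -0.38 against 0.48, became -0.015 ± 0.33 against 0.12 ± 0.33 once the dye effect was removed.

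**Figure D3:**
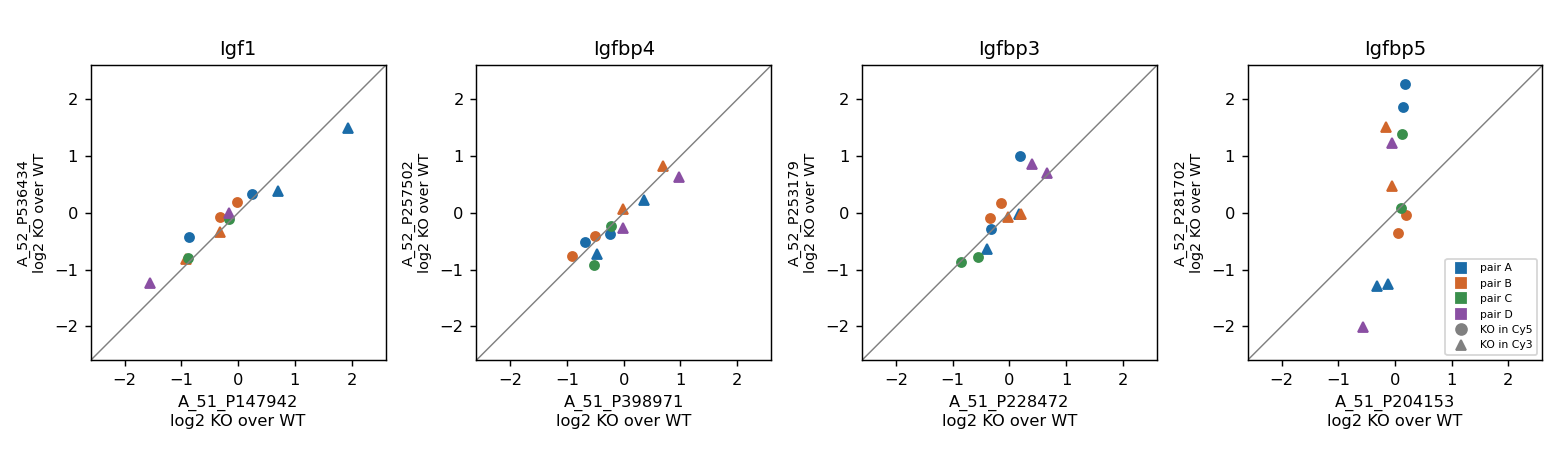
Log2 KO over WT ratios of 2 probes of the same gene (x and y axes) on the 12 arrays, for Igf1, Igfbp4, Igfbp3 and Igfbp5, coloured by pair and shaped by dye, with the line of equality. The points follow the line for Igf1 (correlation 0.981), Igfbp4 (0.935) and Igfbp3 (0.865), while for Igfbp5 (0.692) one probe spans -2.02 to 2.27 and the other -0.56 to 0.19.

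Igfbp5, which binds extracellular matrix as well as IGF, had the most variable probe of the family. At A_52_P281702 (chromosome 1, mm7, 73100116 to 73100175, minus strand) pair A gave 1.87, -1.26, 2.27 and -1.29, and pair B gave -0.35, 0.47, -0.033 and 1.52. Pair C gave 1.39 and 0.08, and pair D gave -2.02 and 1.23. The SD over arrays was 1.38, at percentile 99.3 of all kept probes, and the signs were mixed within pairs A, B and D. In pair A the ratio was above 0 on both arrays with KO RNA in Cy5 and below 0 on both with KO RNA in Cy3. The fit gave 0.32 ± 0.39 (SE, n = 12 arrays, limma adjusted p = 0.717) with an interval from -0.55 to 1.18, so a difference of up to 2.27-fold cannot be told from none. Without replicate 11 it was 0.52 and without replicate 12 0.14 (limma adjusted p = 0.484 and 0.900), and it was 0.18 without replicate 3 and 0.14 without replicate 8. The second Igfbp5 probe (73102653 to 73102712), designed on the same transcript record, ran only from -0.56 to 0.19 (-0.04 ± 0.048, limma adjusted p = 0.695), and the probes differed by 1.06 per array on average. The second probe was dimmer, at a mean signal of 7.83 against 10.8. Its ratio was above 0 on every array with KO RNA in Cy5 and below 0 on every array with KO RNA in Cy3. Its dye coefficient was 0.17, and that of the brighter probe 0.55.

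Igfbp6, which prefers IGF2, was also variable. Its ratios on chromosome 15 (mm7, 102135489 to 102135549, plus strand) were 0.15, -1.57, 0.13 and 1.51 in pair A and 0.82, 1.93, 0.30 and 0.28 in pair B. Pair C gave 0.62 and -1.61, and pair D gave 0.40 and -1.29. The sign was the same on all arrays of pair B alone. The fitted ratio was 0.11 ± 0.35 (SE, n = 12 arrays, limma adjusted p = 0.901), and the SD over arrays of 1.13 lay at percentile 98.5.

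Igfbp7 showed the opposite picture, with arrays of a pair close together and pairs apart. Its probe lies on chromosome 5 (mm7, 77280659 to 77280718, minus strand) and was well above background on all 12 arrays for both RNAs. Pair A gave 0.20, 0.15, 0.14 and 0.0050, and pair B gave -0.51, -0.60, -0.46 and -0.35. Pair C gave 0.24 and -0.16, and pair D gave -0.40 and -0.37. Pairs B and D lay below 0 throughout and pair A above 0, with no overlap between A and B. Pairs A and B were on different slides, so a difference between these pairs cannot be told apart from one between slides. The means were 0.12 ± 0.083 (SD, n = 4), -0.48 ± 0.11 (SD, n = 4), 0.04 (n = 2) and -0.38 (n = 2) for pairs A to D. The test between pairs had the lowest p of the family, at an unadjusted limma p of 0.00116, and an adjusted p of 0.110, so that 0 of 16 members passed it where 0.366% of all kept probes did.

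Over all arrays Igfbp7 stood at -0.18 ± 0.086 (SE, n = 12 arrays, limma adjusted p = 0.266), with a 95% interval from -0.36 to 0.011. Without pair B the ratio was -0.027 (limma adjusted p = 0.886). Endothelial markers, by contrast, were low in every pair, with list medians averaging -0.64, -0.76, -0.70 and -0.99 in pairs A to D, and their part in the Igfbp7 values was not tested. Igfbp1, a binding protein made chiefly by liver, was near background (well above it on 8 arrays for KO and 7 for WT RNA). Its ratios ran from -0.30 through -0.05 to 0.16, with a fit of -0.07 ± 0.042 (limma adjusted p = 0.413).

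The rest of the IGF pathway was read from 87 further genes in lists of ligands, receptors, partners and downstream parts, with each gene taken at its brightest probe. Of these, 84 were tested, and 3 rose and 8 fell, against 3.97% and 4.38% of the 18000 genes tested in each direction. Their median log2 ratio was -0.04, against -0.0068 for all genes. Counting members with the others, 0 of 4 ligands, 0 of 4 receptors, 0 of 7 IGF binding proteins and 0 of 8 binding protein partners and proteases passed (limma), as did 0 of 3 IGF2 mRNA binding proteins and 0 of 10 FOXO factors and targets.

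**Figure D4:**
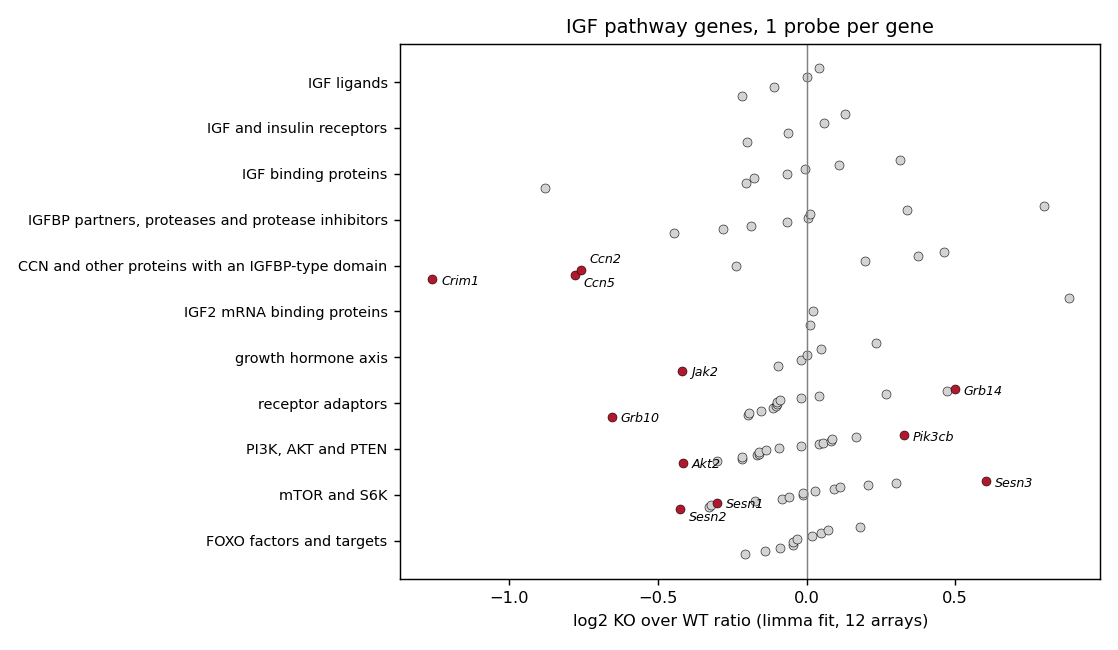
Log2 KO over WT ratio (x axis) of the IGF pathway genes, 1 probe per gene, by list (y axis), with genes past a limma adjusted p of 0.05 in red and named. The lists of ligands, receptors and binding proteins hold no red point, and 3 of 7 proteins that share a domain with the binding proteins lie at -0.76 or below.

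Of the secreted and membrane proteins that share the IGF-binding type of domain, 3 of 7 fell, where 4.38% of all genes tested did. Crim1, a membrane protein that tethers growth factors, fell by 1.26 ± 0.16 on the log2 scale (SE, n = 12 arrays, limma adjusted p = 0.00122) and was below 0 on 12 of 12 arrays, and its second probe stood at -0.81. Ccn2, a matrix protein known as connective tissue growth factor, stood at -0.76 ± 0.14 (limma adjusted p = 0.00917), and its relative Ccn5 at -0.78 ± 0.18 (limma adjusted p = 0.0248). Both were below 0 on 11 arrays. The endothelial and pericyte lists moved the same way, and their part in these values was not tested.

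Among 14 receptor adaptors Grb10 fell and Grb14 rose, where 8.34% of all genes tested passed in either direction. Both encode adaptors that bind the activated insulin and IGF1 receptors and dampen them. Grb10 lay below 0 on each of 12 arrays, at -0.66 ± 0.057 (SE, limma adjusted p = 0.000295). Its other probes gave -0.0075 and -0.05, at low mean signals of 6.84 and 6.4 against 9.19 for the first. Grb14 stood at 0.50 ± 0.14 (limma adjusted p = 0.0468 over 1 probe per gene), and the call was lost over all kept probes (adjusted p = 0.0565). Jak2, the kinase of the growth hormone receptor, was the only one of 6 growth hormone axis genes to pass, at -0.42 ± 0.096 (limma adjusted p = 0.0238), with a second probe at -0.07.

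In the PI3K and AKT list 2 of 16 genes passed, where 8.34% of all genes tested did. Pik3cb, a catalytic subunit of PI3K, rose by 0.33 ± 0.083 (SE, n = 12 arrays, limma adjusted p = 0.0345), and the kinase gene Akt2 stood at -0.42 ± 0.10 (limma adjusted p = 0.0298). In the mTOR list 3 of 15 passed, all of them sestrins, stress-induced inhibitors of mTORC1. Sesn1 and Sesn2 fell, at -0.30 and -0.43 (limma adjusted p = 0.0230 and 0.0220), and Sesn3 rose, at 0.61 (limma adjusted p = 0.0478 over 1 probe per gene), a call that was lost over all kept probes (adjusted p = 0.0574). Dimmer probes of these genes gave -0.04 and -0.15 for Sesn1, -0.07 for Sesn2, and 0.28 and -0.07 for Sesn3, none past the threshold. That Sesn2 probe was not near background, at a mean signal of 10.9, against 13.1 for the called Sesn2 probe and 10.5 for the called Sesn1 probe. The 2 Sesn2 probes thus differ. The second Akt2 probe passed at -0.22 (limma adjusted p = 0.0305 over probes).

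With each array left out in turn, Crim1, Ccn2, Grb10 and Sesn2 passed in 12 of 12 fits. Ccn5 missed the threshold without replicate 3 or 12 (limma adjusted p of 0.0533 at most), and Jak2 and Sesn1 without replicate 12 (0.0503 and 0.0527). Akt2 missed it without replicate 1, 3, 7 or 12 (up to 0.0635), and Pik3cb without 1, 2, 3, 7, 8 or 12 (up to 0.0659). Sesn3 passed in 4 of 12 fits and Grb14 in 2 of 12, with adjusted p up to 0.0987 and 0.0898. Crim1 and Grb10 alone passed with each of the 4 pairs left out (adjusted p up to 0.0147 and 0.0119). In 20 other settings, among them the fits within slides and in pairs A and B alone, 0 of the 11 genes changed direction, but each lost its call in some. Grb10 passed in 17 of the 20, Crim1 and Ccn2 in 16, Akt2 and Sesn1 in 12, and Grb14 and Sesn3 in 11. With pair means 1 of the 11 genes passed.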

How the data were processed

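Total RNA of flash-frozen tumours was labelled with Cy3 or Cy5, and KO and WT RNA were hybridised together on 12 arrays, per the labels' protocols. The deposited scanner files give spot intensity and local background intensity, not normalized, from Agilent Feature Extraction 10.1.1.1 per the file headers, with probe positions on build mm7. They also give 0 or 1 flags per spot, which are deposited as other values. The authors' deposited value table holds log2 ratios of KO over WT, for which the submitters' processing notes name limma. On every array these correlated at 0.9999 or more with loess-normalized KO over WT ratios of mean signals without background correction, with a slope of 0.9995 to 1 and a median difference of -0.0032 to 0.0082. Those 2 settings are therefore 1 alternative, not 2 (1962 of 1985 calls shared).

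Here, mean signals were corrected with normexp (offset 50) and normalized by loess within arrays in R 4.3.3 with limma 3.58.1. Local backgrounds marked as outlying took the median of the array and dye. Controls and spots flagged as outliers had weight 0 (86 to 828 flagged per array, and 6 in all among member probes), and unflagged spots of a probe were averaged. Ratios were fitted with a dye term and a random block for pairs (estimated correlation 0.0793, statmod 1.5.0), with Benjamini-Hochberg adjustment. An F test compared the pairs. Levels are channel log2 intensities after loess and Aquantile normalization. The number of arrays limits the precision. Scripts were tested on simulated data. Names came from the files and, for 22971 probes, from RefSeq accessions in a GRCm38.p6 gene table, whose coordinates were used only for the promoter windows. Members, lists and tests were chosen with earlier results of these data known. All member probes are named, with Dnmt3a and up to 4 called genes per pathway list. Alternatives changed the background step, the normalization, the filter, the probe of a gene, the model terms, the arrays used and the threshold.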

Additional observations from a re-analysis of the deposited data

Results flagged for a closer look

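The Igf1 probe A_52_P306327 stood apart on 1 array of pair A. Replicate 4 had a log2 KO over WT ratio of 1.39, while the other 3 arrays of pair A lay between -0.025 and 0.12. The gap, as a share of the range, exceeded Dixon's 95% critical value for 4 samples. This was 1 of 32 groups of a probe and a pair that were tested, and chance marks about 1 in 20 groups. Replicate 4 also gave the highest ratio at both other Igf1 probes, at 1.94 and 1.49. Without it, the ratio of A_52_P306327 was -0.043 (limma adjusted p = 0.610). The cause was not tested.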

How the results depend on the processing

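The count of 0 member probes past the threshold rose to 1, always the dim Igf1r probe A_52_P668647, in 8 settings, of which no background correction and the authors' log2 ratios are in effect the same. The others were Agilent's processed signals, arrays as independent, the block on red over green ratios, slide as block, array weights (each 1) and leaving out replicate 11 (range 0 to 1 over arrays left out). Of 593 member ratios under alternatives 550 kept direction and side of the threshold, 8 passed it and 35 turned sign, none of them past it. Probe Igfbp3 A_52_P253179 turned to 0.027 with deposited backgrounds, 0.011 with Agilent's signals, 0.098 with median centring, 0.0066 in pairs A and B alone, 0.016 within slide 1, 0.19 without pair C, 0.066 with replicates 9 and 10 averaged (added after the data were seen) and from -0.11 to 0.072 with an array left out. The other Igfbp3 probe stood at 0.015 without pair C. Igf1 A_51_P147942 stood at 0.056, 0.51 and 0.0041, and A_52_P536434 at 0.096, 0.45 and 0.012, in pairs A and B alone, within slide 1 and without pair D. Igf1 A_52_P306327 stood at -0.00064 with deposited backgrounds, -0.14 within slide 3, -0.066 without pair A and -0.043 to 0.10 with an array left out. Igfbp6 stood at -0.014 with pair means, -0.47 within slide 3, -0.21 without pair B and -0.048 to 0.29 with an array left out. Igfbp7 stood at 0.12 within slide 1, Igfbp5 A_51_P204153 at 0.011, Igf1r A_51_P318365 at -0.018 and Insr at -0.032 within slide 2, and Igfbp4 A_51_P398971 at 0.051 within slide 3. The causes were not tested.

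Over all probes 2036 were called. This moved to 486 with median centring (268 higher, 218 lower), 3269 with arrays as independent, 3228 with the block on red over green ratios, 40 with pair means, 1256 in pairs A and B alone, 629 with trend and robust prior and 448 at adjusted p under 0.01. It was 0, 1 and 0 within slides 1, 2 and 3 (5287, 5241 and 5680 at an unadjusted limma p under 0.05), where fewer samples were tested, and 577, 1192, 1185 and 1268 without pairs A, B, C and D. The fits within slides 1 and 2 are fits of pair A and of pair B alone. Deposited backgrounds gave 1525 (940 higher, 585 lower, against 1011 and 1025). Leaving out arrays gave 1053 (replicate 12) to 2687 (replicate 5). The 11 called pathway genes became 3, 1, 4 and 3 with median centring, pair means, trend and robust prior and the stricter threshold, 0, 0 and 0 within slides (19, 27 and 19 unadjusted), 5, 3, 6 and 6 without pairs A to D, and 5 (replicate 12) to 11 with an array left out. No member passed the test between pairs in 5 settings, where 2 to 4 had an unadjusted limma p under 0.05.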
